A study of Mus musculus with 36 samples.

Results

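Brain RNA of Ndufs4 knockout mice given CP2 was compared with that of knockout mice given vehicle, among the samples whose titles carry the letter F. The members were the 5 libraries titled as knockout, CP2 and F (L201, L216, L227, L233 and L234) and the 5 titled as knockout, vehicle and F (L246, L279, L281, L282 and L283), which makes 10 of the 36 samples of the series. The labels give every animal an age of 37 to 45 days and 3 consecutive days of gavage. All 10 animals carry the knockout, so vehicle and CP2 libraries differ by treatment and not by genotype. Further groups are used for reference: wild type F given CP2 (5) or vehicle (5), and knockout M, with 5 CP2 and 3 vehicle libraries. The labels call the tissue brain, while the design text names hippocampus and cortex, and neither says how much of either region a library holds. Nothing in the labels says what the letters F and M stand for. In all 10 libraries Xist stood between 439 and 744 counts-per-million (CPM), and the Y-linked gene Ddx3y stood at 0.0691 CPM or less. The replicates are separate samples by their titles. Unless stated otherwise, p-values of edgeR's tests rest on a spread estimated over all 36 samples in 8 groups, and not on these 10 alone.

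Complex I is the entry point of the mitochondrial respiratory chain, where electrons from NADH are passed to ubiquinone and protons are pumped across the inner membrane. Ndufs4 encodes an accessory subunit of its NADH-oxidising arm, and mice that lack it develop a fatal brain disease that serves as a model of Leigh syndrome. CP2 is, per the title of the series, an inhibitor of complex I, so the comparison asks what a complex I inhibitor changes in brains in which complex I already lacks a subunit. The labels give neither the dose nor the vehicle, and do not say which cells carry the deletion.

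Gene counts summed to between 46984686 and 66325207 per library. The share of reads outside annotated genes averaged 7.54% under CP2 and 9.24% under vehicle, a difference of -1.70 percentage points (exact two-sided permutation test, p = 0.286, n = 5 and 5). Pearson correlations of log2 CPM within a group ran from 0.958 to 0.971, and no pair of replicates agreed within sampling noise. Below, values of the 5 CP2 libraries are listed in the order L201, L216, L227, L233, L234, and those of the 5 vehicle libraries in the order L246, L279, L281, L282, L283. Genes were called where the adjusted p was below 0.05 (edgeR's quasi-likelihood test with Benjamini-Hochberg adjustment over all genes tested). Fold changes are on the log2 scale, CP2 against vehicle, so that positive values mean higher under CP2.

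Several of the 10 libraries stood apart, and 3 of them were left out as sets. Vehicle library L246 had the highest level of 28 of 34 immediate early genes, which neurons transcribe within minutes of strong stimulation, and in 22 of them it was above 2 times the highest of the other 9 libraries. Of the 10366 tested genes at 10 CPM or more in L246, 47 were that far above the others (0.453%). CP2 libraries L201 and L233 carried transcripts of cerebellar neurons. CP2 library L227 was high for striatal markers, at a summed level of 2135 CPM against 783 to 899.6 CPM in the other 4 CP2 libraries. Vehicle library L279 was high for thalamic markers, at 742 CPM against 266.7 to 469 CPM in the other 4 vehicle libraries. Counts of called genes for knockout F are given with all 10 libraries, without L246, without L201 and L233, and without each library in turn.

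Ndufs4, the targeted gene, stood at 37.4, 36.4, 34.8, 37.1 and 31.3 CPM in the CP2 libraries and at 35.9, 33, 37.1, 36.1 and 30.2 CPM in the vehicle libraries. The knockout groups overlapped, with a log2 fold change of 0.04 (standard error 0.08) and an adjusted p of 0.924 in edgeR's test. Wild type F libraries averaged 53.4 ± 5.51 CPM under vehicle and 52.2 ± 6.61 CPM under CP2 (SD, n = 5 each). Counts per gene do not show which exons the remaining reads cover, and they do not measure the protein.

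With all 10 libraries, in the fit of all 36 samples, 22 of 25601 genes tested were called (0.0859%). Of these, 14 were higher under CP2 (0.0547%) and 8 were lower (0.0312%). Unadjusted p under 0.05 was reached by 2827 genes (11.0%), 1448 of them higher (5.66%) and 1379 lower (5.39%). The called changes were modest, with a median size of 0.51 on the log2 scale. Zbtb18 and Klhl2 had the smallest adjusted p of those that rose, and Mfsd2a was among those that fell. In 17 of the 22 the CPM ranges of the 5 CP2 and 5 vehicle libraries did not overlap. Over all genes tested, 0.547% did not overlap with CP2 higher and 0.488% with CP2 lower. Since the 22 were chosen by their p in the same libraries, their count without overlap largely follows from the choice. The last called gene, Mmd, had an adjusted p of 0.0469, and the first uncalled genes, Lztr1 and Zeb2, had 0.0523.

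Without L246 the call was reduced to 2 of 25511 genes, Zbtb18 and Klhl2, both higher (0.00784%), and none was lower (0.00%). At an unadjusted p under 0.05 there were 2581 genes (10.1%), 1379 higher (5.41%) and 1202 lower (4.71%). The other 20 kept their sign, with adjusted p between 0.0646 (Castor2) and 0.15 (Cacna1a). Without L201 and L233, 27 genes were called (0.106%), 14 higher (0.0549%) and 13 lower (0.0510%), and 5 of them were among the 22. Those 5 were Zbtb18, Klhl2, Cnih2, Diras2 and Sema3e. Without all 3 libraries 14 genes were called (0.0552%), 6 higher (0.0236%) and 8 lower (0.0315%), and Klhl2 and Cnih2 were the 2 shared with the 22. Leaving out 1 library at a time gave 2 to 105 called genes. The counts were 2 without L246, 3 without L279, 3 without L233 and 12 without L282. They were 35 without L216, 55 without L281, 80 without L283, 82 without L234 and 105 without L201, and 24 without L227. Zbtb18 and Klhl2 were called in each of these 10 fits. When only the 10 libraries themselves were fitted, no gene was called (1222 at an unadjusted p under 0.05), and DESeq2 on all 36 samples called 220, among them all 22.

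**Figure D1:**
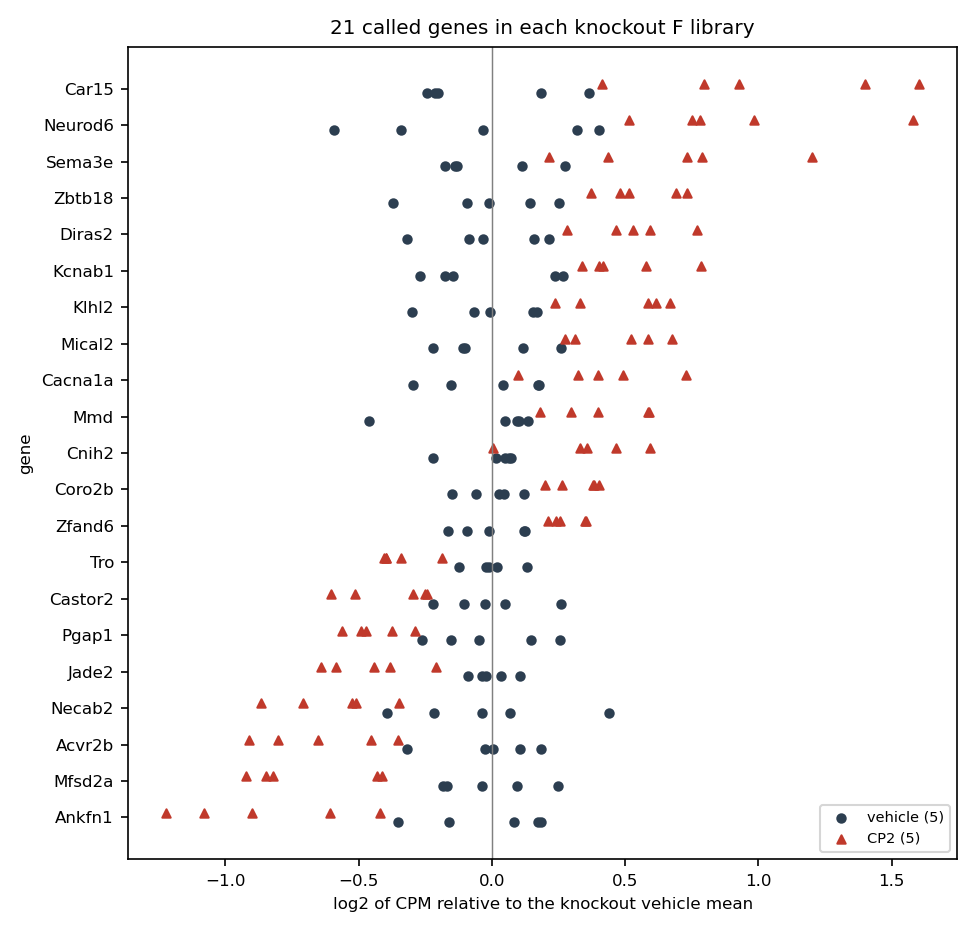
CPM of 21 of the 22 called genes in each knockout F library, as log2 relative to the mean of the 5 vehicle libraries (x axis), 1 gene per row, with CP2 as triangles and vehicle as circles and Pcp2 left out. For Zbtb18 and Klhl2 all 5 CP2 libraries lie to the right of all 5 vehicle libraries, and for Mfsd2a and Jade2 all lie to the left.

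Zbtb18 and Neurod6, both transcription factors of excitatory neurons, rose. Zbtb18, a zinc-finger repressor needed for the differentiation of cortical neurons, stood at 350.01, 309.9999, 302.9, 360.2 and 280.7 CPM under CP2. In the vehicle libraries it stood at 203, 168, 258, 215.6 and 239 CPM. Every CP2 library was above every vehicle library, by a log2 fold change of 0.56 (standard error 0.09) with an adjusted p of 0.0031 in edgeR's test. It was 0.54 without L246 (adjusted p = 0.0244) and 0.46 without L201 and L233 (adjusted p = 0.0448). Without all 3 it was 0.43, and the adjusted p was 0.0803. Neurod6, a basic helix-loop-helix factor of pyramidal neurons, stood at 56.7, 65.2, 47.1, 98.7 and 55.5 CPM under CP2 and at 32.3, 21.9, 26, 41.2 and 43.6 CPM under vehicle. The groups did not overlap, and the log2 fold change was 0.97 (standard error 0.18) with an adjusted p of 0.0296 in edgeR's test. The highest CP2 library for Neurod6 was L233, and without L246 the adjusted p was 0.0714.

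Zbtb18 protein is known to bind the E-box variant CAGATG, which is also present before its own gene, so the 250 bases before the start of Zbtb18 are shown from RefSeq (build GRCm38.p6, plus strand, chr1:177442101-177442350), with the match on the opposite strand, CATCTG, in capitals, 129 bases before the start.
Zbtb18: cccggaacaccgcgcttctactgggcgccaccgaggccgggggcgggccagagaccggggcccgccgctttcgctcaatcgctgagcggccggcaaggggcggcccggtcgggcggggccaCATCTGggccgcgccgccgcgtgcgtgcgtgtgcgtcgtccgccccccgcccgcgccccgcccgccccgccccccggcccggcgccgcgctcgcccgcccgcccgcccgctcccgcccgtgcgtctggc
All 5 windows that RefSeq lists for Zbtb18 hold the motif on one strand or the other. Of 18 called genes with a window (250 bases before to 50 after a start), 2 held CAGATG on either strand (11.1%), Pcp2 and Zbtb18, against 19.2% of 27025 genes. A match is a description of letters and not a measured site.

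Klhl2, Coro2b, Mical2 and Sema3e also rose, and of these 4 only Klhl2 was called without L246. Klhl2, an actin-binding adaptor of the cullin-3 ubiquitin ligase, stood at 168, 179, 218, 226 and 214 CPM under CP2 and at 136, 116, 160.3, 159 and 142 CPM under vehicle. No CP2 library was as low as the highest vehicle library, and the log2 fold change was 0.50 (standard error 0.08) with an adjusted p of 0.0031 in edgeR's test. The log2 fold change of Klhl2 was 0.48 without L246 and 0.52 without L201 and L233, and over all fits with 1 library left out it ran from 0.43 to 0.55. With all 3 left out its adjusted p was 0.0185. Coro2b, an actin-binding coronin, stood at 188, 165, 187, 190.4 and 173 CPM under CP2 and 138, 129.9, 157, 149 and 147 CPM under vehicle, again without overlap. Its log2 fold change was 0.33 (standard error 0.06). Mical2, a monooxygenase that oxidises actin, stood at 194 to 256.8 CPM against 138 to 193 CPM, with L234 of the CP2 group nearly level with L283 of the vehicle group. Sema3e, a secreted guidance cue that binds plexin D1, stood at 31.8, 39, 27.2, 54 and 40.5 CPM under CP2 and 21.3, 21.4, 20.8, 25.4 and 28.4 CPM under vehicle. Its groups overlapped through CP2 library L227, and the log2 fold change was 0.71 (standard error 0.13) with an adjusted p of 0.0262 in edgeR's test.

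Cnih2, Kcnab1, Cacna1a and Diras2 rose with all 10 libraries, and none of these 4 was called without L246. Cnih2, an auxiliary subunit of AMPA-type glutamate receptors, stood at 234.5, 294, 299.3, 322.1 and 352 CPM under CP2 and 244, 200.2, 245, 242 and 236 CPM under vehicle. CP2 library L201 lay within the vehicle range, and the other 4 lay above it. The log2 fold change of 0.36 (standard error 0.08) became 0.43 without L201 and L233, with an adjusted p of 0.0161 in edgeR's test. Kcnab1, a beta subunit of voltage-gated potassium channels, stood at 96.1 to 131 CPM against 63.1 to 91.7 CPM, without overlap. Cacna1a, the pore-forming subunit of P/Q-type calcium channels, stood at 251, 189.95, 199.7, 213 and 162 CPM under CP2 and 124, 156, 171, 136 and 171 CPM under vehicle. L201 was its highest library, L234 fell inside the vehicle range, and the log2 fold change of 0.42 (standard error 0.09) became 0.28 without L201 and L233. Diras2, a small GTPase of the Ras family found in brain, stood at 225 to 316 CPM against 149 to 215 CPM, without overlap.

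The other 4 genes that rose had varied roles. Mmd, a membrane protein of the progestin and adipoQ receptor family, stood at 159 to 211 CPM against 102 to 154 CPM. Zfand6, a zinc-finger protein, stood at 43.8 to 48.4 CPM against 33.8 to 41.3 CPM, and its log2 fold change of 0.28 (standard error 0.06) was the smallest of the called genes. Car15, a membrane-anchored carbonic anhydrase of low level here, stood at 1.69, 1.85, 1.3, 2.96 and 2.57 CPM under CP2 and 0.824, 0.847, 1.25, 0.841 and 1.11 CPM under vehicle, a log2 fold change of 1.09 (standard error 0.24). Pcp2, a Purkinje cell protein, was called from L201 and L233 alone, as described with the cerebellar markers.

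Of the 8 genes that fell, Mfsd2a had the smallest p. Mfsd2a carries lysophospholipids with docosahexaenoic acid across brain endothelium. It stood at 17.6, 23.4, 17.9, 16.7 and 23.7 CPM under CP2 and at 37.5, 30.7, 33.7, 27.8 and 28.1 CPM under vehicle, so that every CP2 library was below every vehicle library. The log2 fold change was -0.67 (standard error 0.13) with an adjusted p of 0.0262 in edgeR's test, and L246 was the highest library. Without L246 it was -0.60 (adjusted p = 0.0745). The other 24 endothelial and barrier genes of the list were not called, and the list's median was -0.02 with all libraries and -0.33 without L201 and L233. Slc2a1, the glucose transporter of the barrier, stood at 119, 91.4, 77, 99.4 and 96.5 CPM under CP2 and 175, 137, 111, 85.6 and 97.9 CPM under vehicle, which overlapped.

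Jade2, Castor2, Acvr2b, Necab2, Tro, Pgap1 and Ankfn1 also fell, and none of them was called without L246. Jade2, a zinc-finger subunit of histone acetyltransferase complexes, stood at 58.4, 68.7, 60.9, 52.9 and 51 CPM under CP2 and 85.5, 78.2, 77.4, 81.2 and 74.6 CPM under vehicle, without overlap, a log2 fold change of -0.44 (standard error 0.09). Castor2, a homolog of the arginine sensor that restrains the growth kinase complex mTORC1, stood at 131, 162, 139, 168 and 167 CPM under CP2 and 185, 206, 170.2, 195 and 238 CPM under vehicle. The 2 groups came close, at 168 CPM in L233 and 170.2 CPM in L281, and the log2 fold change was -0.37 (standard error 0.07). Acvr2b, a type II activin receptor, stood at 5.6 to 8.24 CPM against 8.45 to 12 CPM, a log2 fold change of -0.62 (standard error 0.13). Necab2, a neuronal calcium-binding protein, stood at 54.7 to 78.4 CPM against 75.8 to 135 CPM, with overlap of L234 and L283. Tro, a member of the MAGE family, stood at 146 to 171 CPM against 178 to 212 CPM. Pgap1, which removes an acyl group from glycosylphosphatidylinositol anchors, stood at 40.8 to 49.3 CPM against 50.2 to 72 CPM. Ankfn1 had the largest fall, -0.81 (standard error 0.17), at a low level of 3.72 to 6.49 CPM against 6.8 to 9.87 CPM.

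The genes called without L201 and L233 included metabolic and signalling genes that all 10 libraries left above the threshold. Pfkl, the liver-type phosphofructokinase of glycolysis, stood at 116, 152, 136, 134 and 184 CPM under CP2 and 131, 109, 122, 114 and 101 CPM under vehicle. Its log2 fold change was 0.32 with all 10 (adjusted p = 0.125) and 0.45 without L201 and L233 (adjusted p = 0.0413). Adcy6, an adenylyl cyclase, went from -0.35 to -0.51, and Tmeff1, a membrane protein with follistatin-like domains, from 0.32 to 0.43. Nrn1, a neuronal growth protein among the immediate early genes, went from 0.34 to 0.42, with an adjusted p of 0.0205. Pfkl, Adcy6 and Tmeff1 were also called without all 3 libraries.

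Of the marker lists of brain regions, only 1 hippocampal CA gene and 1 cerebellar gene were called. All 13 genes of the hippocampal CA list had a positive log2 fold change, with a median of 0.31, and 6 had an unadjusted p under 0.05, but only Neurod6 was called. Summed over the list, CPM ran from 965 to 1148 under CP2 and from 762 to 914 under vehicle, which did not overlap. The median of all 25601 genes tested was -0.0049, and 12593 were positive and 13000 negative. At an unadjusted p under 0.05, 5.66% of all genes were higher and 5.39% lower. Genes of the same list can rise and fall together, so counts of signs here and in the lists below are no test. The CA list's median was 0.27 without L246 and 0.33 without L201 and L233. Spink8, an inhibitor of serine proteases found in CA neurons, stood at 5.05, 3.41, 1.94, 6.33 and 3.79 CPM under CP2 and 2.26, 1.24, 2.81, 1.22 and 0.933 CPM under vehicle, a log2 fold change of 1.28 (standard error 0.34) that was not called. With the mean level of the CA list as a covariate, 5 genes were called, of which only Diras2 was among the 22. The log2 fold changes of Sema3e and Neurod6 were then 0.13 and 0.28, against 0.71 and 0.97 without the covariate. Neurod6 is itself in that list. All 22 kept their sign, and not all fell as far. Over all settings tried, this one included, Klhl2 was never below 0.39, against 0.50 in the fit without covariates. Diras2 was likewise never below 0.39, against 0.54. The list's mean log2 CPM ran from 4.80 to 5.35 under CP2 and from 4.49 to 4.66 under vehicle. The covariate therefore takes up part of the treatment difference, and this fit cannot tell them apart. In bulk tissue, more cells of a type and more RNA per cell cannot be told apart, and the part of region markers in the called genes was not tested.

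Dentate granule markers had a median of 0.86 (9 of 9 positive, none called), which was 0.47 without L201 and L233. Cortical excitatory markers had a median of 0.29 (7 of 7 positive, none called), which was 0.09 without L227, 0.19 without L246 and 0.18 without L279, among them Neurod2 at 112, 103, 115, 105 and 112 CPM under CP2 and 70.9, 56.1, 109, 75.5 and 76.7 CPM under vehicle. Markers of upper cortical layers had a median of -0.17, with 5 of 8 negative and 3 lower at an unadjusted p under 0.05, and those of deep layers had a median of 0.016, with none called in either list. The upper-layer median was -0.10 without L233 and -0.012 without L279. Thalamic markers had a median of -0.53 (none called), which was -0.21 without L279, with vehicle library L279 highest for Tcf7l2, at 53.5, 123, 38.6, 60.1 and 76.3 CPM over the vehicle group. Hypothalamic markers had a median of -0.59 (8 of 9 negative, none called), which was 0.13 without L201 and L233. That median moved with most libraries, from -1.33 without L234 to -0.28 without L201. Choroid plexus markers had a median of -0.43 (none called), and -1.20 without L201 and L233. It was -1.23 without L201 alone, -0.28 without L227 or L234, and -0.16 without L279. Ttr, which makes the thyroxine carrier of the choroid plexus, stood at 3251, 631, 660.1, 712 and 565 CPM under CP2 and 1409, 2629.9, 1588, 1027 and 1191 CPM under vehicle. L201 was thus the highest and the other 4 CP2 libraries were below every vehicle library. Striatal markers had a median of 0.35 (15 of 15 positive, none called), which turned to -0.16 without L227, and was 0.71 without L281 and 0.21 without L283. The striatal receptor Drd1 stood at 15.4, 13.6, 48.3, 13.7 and 16 CPM under CP2, highest in L227, and at 10.8, 8.52, 32.8, 23.7 and 9.3 CPM under vehicle, highest in L281.

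Among the 10 libraries, transcripts of cerebellar neurons were highest in L201 and L233 for all 6 markers of the list. Single wild type F libraries reached 3.01 CPM for Pcp2, 2.96 for Gabra6, 9.04 for Cbln3, 22.6 for Car8, 11.0 for Fat2 and 18.3 for Neurod1. For Fat2 and Neurod1 that was above L233, at 8.18 and 17.0 CPM. Pcp2 stood at 37.7, 0.165, 0.111, 27.6 and 0 CPM under CP2 and 0.137, 0, 0.0199, 0.12 and 0.104 CPM under vehicle. L201 and L233 were thus the only ones of the 10 above 1 CPM. Gabra6, a GABA-A receptor subunit of granule cells, stood at 52.2, 0.281, 0, 7.62 and 0.0148 CPM under CP2 and 0, 0.388, 0, 0.189 and 0 CPM under vehicle. Cbln3, a secreted protein of granule cells, stood at 178, 0.645, 0.296, 16.3 and 0.325 CPM under CP2 and 0.784, 0.988, 1.29, 1.1 and 1.56 CPM under vehicle. The ratio of L201 to L233 differed between these genes, from 1.37 for Pcp2 to 13.6 for Fat2. The list's median log2 fold change was 4.97 with all 10 libraries and 0.01 without L201 and L233. Genes of other lists were high in the same libraries. Pvalb, a calcium buffer of fast-spiking interneurons and of Purkinje cells, stood at 119, 52.9, 40, 116 and 42.8 CPM under CP2 and 38.4, 31.6, 37.1, 40.8 and 31.8 CPM under vehicle, and its log2 fold change went from 1.04 to 0.33 without them. Grin2c, an NMDA receptor subunit of granule cells, was highest in L201 at 121 CPM against 39.7 to 51.5 CPM under vehicle.

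**Figure D2:**
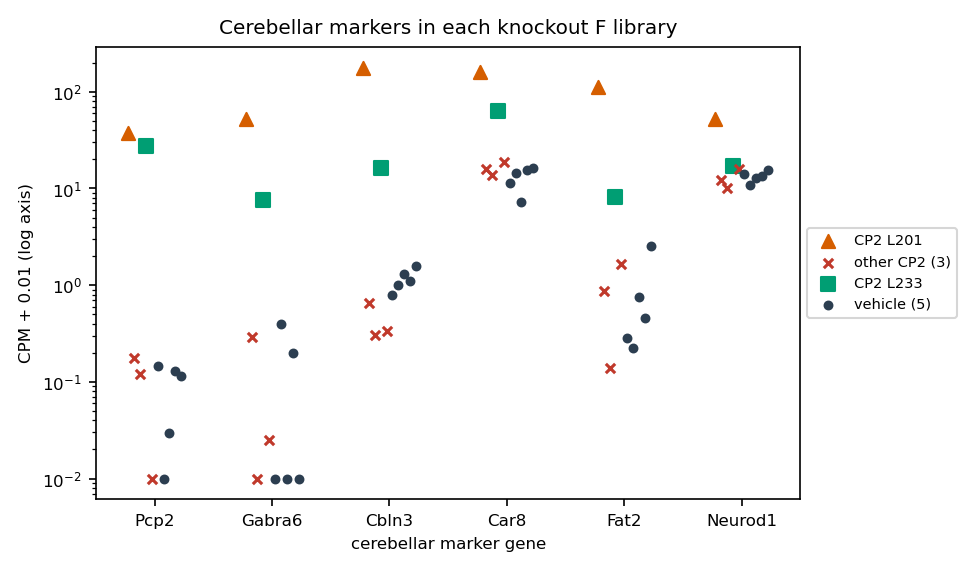
CPM plus 0.01 on a log axis of 6 cerebellar markers (x axis) in each knockout F library. L201 (orange triangles) and L233 (green squares) lie above the other 8 libraries for all 6 genes, by the least for Neurod1, where L233 was at 17.0 CPM and the highest of the other 8 at 15.9 CPM.

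Immediate early genes separated L246 from the other 9 libraries. Fos, a subunit of the transcription factor AP-1, stood at 12.1, 29.5, 15.4, 19.6 and 17.9 CPM under CP2 and at 644, 8.93, 21.9, 13.9 and 19.5 CPM under vehicle. Npas4, a factor induced by calcium entry in neurons, stood at 4.37, 13.2, 12.6, 11 and 5.95 CPM under CP2 and 419, 4.38, 11, 8.39 and 8.5 CPM under vehicle. For both genes L246 was far above the rest and the other 4 vehicle libraries lay within or near the CP2 range. Fosb (329.9 CPM in L246), Junb (644 CPM), Arc (594 CPM) and Nr4a1 (479.7 CPM) were likewise highest there. Outside the list, Lars2, a mitochondrial leucyl-tRNA synthetase, stood at 4110.1 CPM in L246 and at no more than 559.7 CPM in the other 9. ENSMUSG00000118642 stood at 357 CPM in L246 against no more than 35.0 CPM, Mir6236 at 26.7 against 2.90 CPM, and Gm15564 at 19.8 against 2.25 CPM. ENSMUSG00000119584, a gene without a symbol, took 3.20% of gene counts in L246 and no more than 1.70% in the other 9. Whether reads of these genes and of Lars2 in L246 have the same source as those of the immediate early genes was not tested.

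With all 10 libraries the 34 genes had a median log2 fold change of -0.70, with 14 lower and 1 higher at an unadjusted p under 0.05 and none called. Over all genes tested, 5.39% were lower and 5.66% higher at that threshold. Without L246 the list's median was 0.16, with 4 higher and none lower. Fos went from -2.90 to 0.24, Npas4 from -3.26 to 0.22 and Fosb from -3.30 to -0.05. The direction of the list therefore rested on 1 library.

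Many of these genes are activated by the factor CREB, which binds the cyclic AMP response element TGACGTCA or its shorter core TGACG, searched on both strands. Promoters of 3 genes with a match, whose highest library was L246, are shown as examples from RefSeq, GRCm38.p6, 250 bases before the start, 5′ to 3′. Fosb and Npas4 stood further above the other libraries in L246 than any of these 3. Capitals mark the core in Fos (chr12:85473640-85473889, plus strand) and the full element in Btg2, an antiproliferative gene (chr1:134079156-134079405, minus strand), and in Dusp1, a phosphatase of MAP kinases (chr17:26508473-26508722, minus strand).
Fos: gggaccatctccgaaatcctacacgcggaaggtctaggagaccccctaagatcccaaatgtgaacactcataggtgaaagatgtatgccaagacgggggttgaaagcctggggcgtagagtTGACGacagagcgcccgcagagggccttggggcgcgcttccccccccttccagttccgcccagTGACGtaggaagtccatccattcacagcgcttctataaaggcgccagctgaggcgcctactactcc
Btg2: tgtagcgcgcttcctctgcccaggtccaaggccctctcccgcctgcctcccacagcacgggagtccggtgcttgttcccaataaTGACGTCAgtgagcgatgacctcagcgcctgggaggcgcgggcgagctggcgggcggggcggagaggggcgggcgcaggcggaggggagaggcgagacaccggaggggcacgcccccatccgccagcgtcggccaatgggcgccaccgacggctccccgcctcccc
Dusp1: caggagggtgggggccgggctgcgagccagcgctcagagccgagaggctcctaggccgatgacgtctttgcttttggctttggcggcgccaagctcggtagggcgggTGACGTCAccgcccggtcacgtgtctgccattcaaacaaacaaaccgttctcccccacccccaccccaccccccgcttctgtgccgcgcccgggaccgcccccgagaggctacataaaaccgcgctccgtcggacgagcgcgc
Btg2 stood at 333 CPM in L246 and Dusp1 at 249.5 CPM. Of the 34 genes, 25 had a window of 300 bases, and 4 of these held the full element on either strand (16%; Btg2, Dusp1, Maff and Scg2), against 2.03% of 27025 genes. The core, which every full element contains, was in 18 of 25 (72%) and in 23.0% of all genes. These are descriptions of sequence, and binding was not measured.

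**Figure D3:**
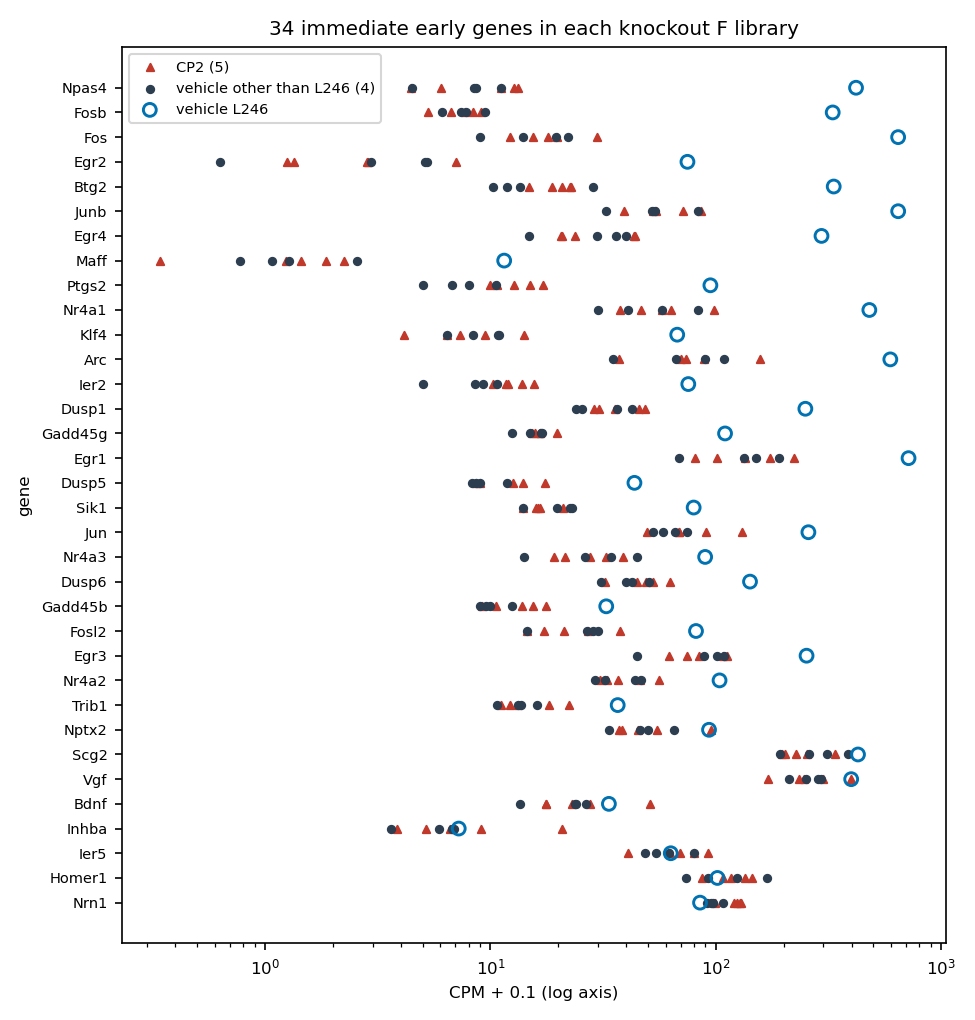
CPM plus 0.1 on a log axis (x axis) of 34 immediate early genes in each knockout F library, with vehicle library L246 as open circles, the other 4 vehicle libraries as filled circles and the 5 CP2 libraries as triangles. L246 is the highest library in 28 of the 34 rows, and the CP2 libraries overlap the other vehicle libraries.

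No gene of the mitochondrial lists was called. Of 35 nuclear complex I subunits tested, 32 had a positive log2 fold change, with a median of 0.07, 3 had an unadjusted p under 0.05 and none was called. Of all 25601 genes tested, 12593 were positive, and 5.66% were higher at that threshold. Ndufc1, an accessory subunit, stood at 35.4, 35.6, 32, 37.6 and 39.2 CPM under CP2 and 34.6, 32.4, 28.9, 31.5 and 28.5 CPM under vehicle, which overlapped. The 39 nuclear subunits of complexes II to V had a median of 0.12 with none called and 38 of 39 positive. The 13 genes of mitochondrial DNA had a median of 0.19 and none called, and 0.03 without L201 and L233. For mt-Atp6, a subunit of ATP synthase, L233 stood apart at 94.6 CPM, against 9.65 to 15.5 CPM in the other CP2 libraries and 10.4 to 14.7 CPM under vehicle. Tfam, which packages mitochondrial DNA, stood at 33.6, 40.2, 37.3, 36.2 and 34.7 CPM under CP2 and 30.4, 29.1, 31.6, 33.9 and 28.8 CPM under vehicle, a log2 fold change of 0.24 (standard error 0.06) (adjusted p = 0.104 in edgeR's test). None of the 13 AMPK genes, 24 ATF4 stress genes, 18 NRF2 genes, 27 glycolysis and glucose transport genes, 16 fatty acid oxidation genes or 12 hypoxia targets was called with all 10 libraries. Gdf15, a hormone of mitochondrial stress, was at or below 0.259 CPM in all 10.

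Most microglial and all myelin genes had positive fold changes, and none was called. Of 13 homeostatic microglia genes, 12 had a positive log2 fold change with a median of 0.30, and 9 had an unadjusted p under 0.05, all higher. Of all 25601 genes tested, 12593 were positive, and 5.66% were higher at that threshold. The microglia list's median was 0.35 without L246 and 0.39 without L201 and L233. P2ry13, a nucleotide receptor of microglia, stood at 9.17, 13.2, 12.3, 13 and 11.7 CPM under CP2 and 9.98, 7.32, 6.07, 8.53 and 9.16 CPM under vehicle, where L201 lay inside the vehicle range. Fcrls stood at 19.2, 22.8, 20.6, 24.7 and 38.2 CPM under CP2 and 19.1, 9.95, 11.7, 15.4 and 21.9 CPM under vehicle, highest in L234. All 16 myelin genes were positive with a median of 0.29, and 5 had an unadjusted p under 0.05. Opalin, a membrane protein of myelinating cells, stood at 52.8, 63, 70, 73.9 and 50.1 CPM under CP2 and 40.1, 38.3, 34.6, 45.7 and 38.8 CPM under vehicle, without overlap, at a log2 fold change of 0.65 (standard error 0.17) that was not called (adjusted p = 0.116 in edgeR's test).

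Most glucocorticoid targets had negative fold changes, and none was called. Of 18 tested, 14 had a negative log2 fold change with a median of -0.41, and 7 had an unadjusted p under 0.05. Of all 25601 genes tested, 13000 were negative, and 5.39% were lower at that threshold. The list's median was -0.27 without L281. Summed CPM of the list were 1229, 1105, 1176, 1111 and 939 under CP2 and 1370.05, 1363, 1437.5, 994 and 980.1 under vehicle. The 3 high vehicle libraries, L246, L279 and L281, had 10.1%, 11.4% and 11.7% of reads outside genes, and L282 and L283 had 6.86% and 6.19%. L201, the highest CP2 library for the list, had 11.0%, and the other 4 had 5.83% to 8.18%. With that share as a covariate, in a fit added after seeing the data, the list's median was -0.19. The part of that share in the list's difference was not tested. Plin4, a lipid droplet coat protein, stood at 6.74, 3.11, 0.963, 1.67 and 1.39 CPM under CP2 and 7.73, 17, 19.6, 10.1 and 3.8 CPM under vehicle. The groups overlapped, since vehicle library L283 was below CP2 library L201. For Errfi1, a feedback inhibitor of the EGF receptor, L246 stood at 109 CPM, and the log2 fold change went from -0.65 to -0.11 without it. Among astrocyte genes, S100b, a calcium-binding protein, stood at 178, 152, 122, 199 and 159.7 CPM under CP2 and 152, 112, 86.6, 115 and 122 CPM under vehicle, and the receptor Fgfr3 at 139, 154, 109, 101 and 134 CPM and 229, 177, 166, 143 and 145 CPM. S100b was thus mostly higher and Fgfr3 mostly lower, and neither was called. Of 24 interferon-stimulated genes, 21 were positive with a median of 0.28, 3 were higher at an unadjusted p under 0.05 and none was called. Over all genes tested, 12593 were positive, and 5.66% were higher at that threshold. The interferon list's median was 0.17 without L201, L246 or L279. Without both L201 and L233 it was 0.165, and no gene of the list reached that threshold.

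**Figure D4:**
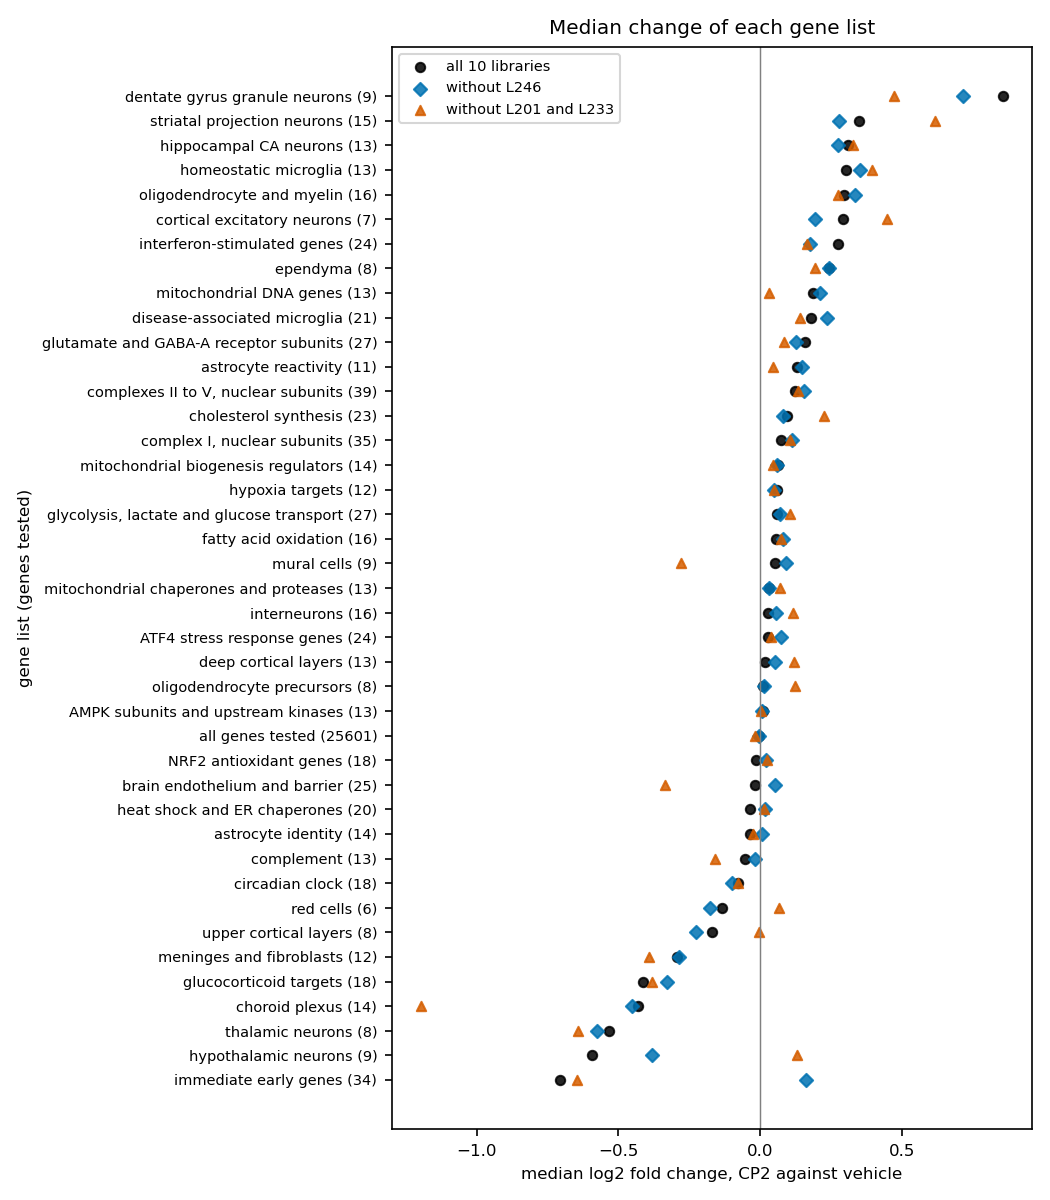
Median log2 fold change, CP2 against vehicle (x axis), of each gene list, with the number of genes tested in parentheses, for all 10 libraries (circles), without L246 (diamonds) and without L201 and L233 (triangles), with the cerebellar list left out. Immediate early genes move from -0.70 to 0.16 without L246, and choroid plexus genes from -0.43 to -1.20 without L201 and L233.

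In wild type F animals, CP2 against vehicle called no gene (0.00%; 679 at an unadjusted p under 0.05, 2.65%). The difference of the knockout effect from the wild type effect, tested as an interaction in edgeR, also called none (0.00%; 1478 at an unadjusted p under 0.05, 5.77%). For Zbtb18 the log2 fold change was 0.56 in knockout F and 0.03 in wild type F, and the adjusted p of the difference was 0.453. For Klhl2 these were 0.50 and 0.07, with an adjusted p of 0.605. A difference between genotypes was thus not shown for either gene. Levels of Zbtb18 in wild type F averaged 289.1 ± 19.9 CPM under vehicle and 294 ± 29.5 CPM under CP2 (SD, n = 5 each), and knockout F averaged 217 ± 34.7 CPM and 321 ± 33.3 CPM. For Klhl2 the wild type averages were 182 ± 5.15 CPM and 191 ± 11.7 CPM, and the knockout averages 143 ± 18.3 CPM and 201.3 ± 25.7 CPM. Both genes were chosen by a difference between these same knockout CP2 and vehicle libraries. Where the knockout averages lie against wild type is therefore not independent of the choice, and it was not tested.

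In knockout M animals CP2 against vehicle called 1306 genes (5.10%), and 8 of the 22 genes had the same sign as in knockout F. In CP2 library L291 of this group Xist stood at 47.3 CPM beside Ddx3y at 80.8 CPM. Xist was at 0.275 CPM or less in the other knockout M libraries, and the source of these reads was not tested. Tested as an interaction, the F effect minus the M effect called 177 genes (0.691%), including 13 of the 22. Since the 22 were chosen by the F effect, which is one term of that difference, their count is not independent of the choice. Without L246 the difference called 23 genes (0.0902%), 4 of them among the 22, and without L201 and L233 it called 70 (0.275%), 5 of them among the 22. Reads outside genes took 11.3% to 13.03% of the 3 vehicle libraries of knockout M and 5.18% to 9.06% of its 5 CP2 libraries, which did not overlap. With that share as a covariate 13 genes were called for the difference, 4 of them among the 22. None was called with 2 surrogate variables, with the CA score, or in a fit of only the 4 groups. Of the 22, 2 were called in M, both lower: Mical2 at 0.48 (standard error 0.09) in F and -0.35 in M, and Cacna1a at 0.42 (standard error 0.09) in F and -0.37 in M. Neurod6 was 0.97 in F and -0.27 in M, a difference of 1.24 (adjusted p = 0.0345 in edgeR's test). Timp3, an inhibitor of matrix metalloproteinases, was -0.43 in F and 0.38 in M, and the ribosomal gene Rps27a was -0.04 and 0.50. Without vehicle library L322 of the M group, no gene was called for the F and M difference, and without any other single library 23 to 838 were. Gpr34, a microglial receptor, was 0.51 in F and 0.53 in M, and the difference was -0.01 (standard error 0.23).

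**Figure D5:**
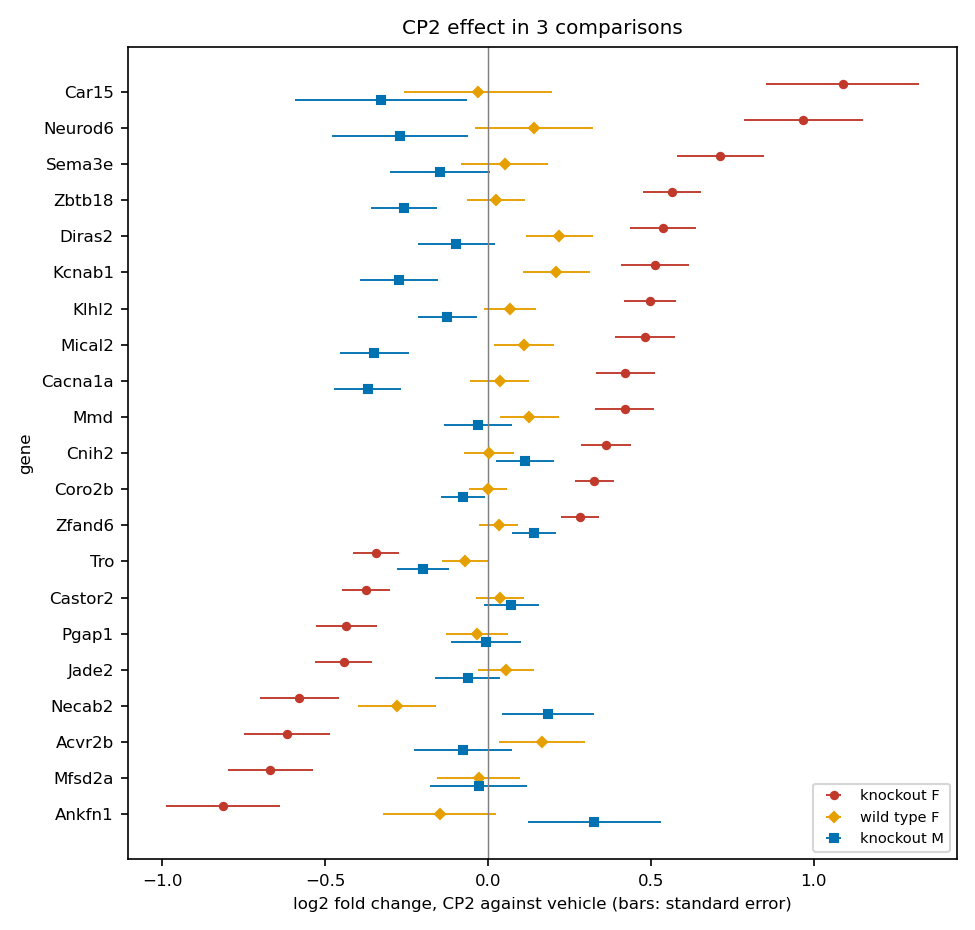
Log2 fold change of CP2 against vehicle with its standard error (x axis) for 21 called genes in knockout F (circles, 5 and 5 libraries), wild type F (diamonds, 5 and 5) and knockout M (squares, 5 and 3), with Pcp2 left out. Mical2 and Cacna1a lie above 0 in knockout F and below 0 in knockout M.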

How the data were processed

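PolyA-selected brain RNA of 36 mice was sequenced, per the labels' protocols. The deposited table holds raw counts per Ensembl gene, which the authors made with STAR and HTSeq on GRCm39, per the submitters' processing notes; versions, annotation release and strand setting are not given in the sources used here, so overlapping and antisense genes are uncertain. Of 56985 rows, the 5 summary rows were dropped. Symbols came from a GENCODE M21 name table (52073 of 56980 identifiers). RefSeq promoters are on GRCm38.p6, and no coordinates were converted.

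Counts were tested with edgeR 4.0.16 in R 4.3.3: TMM scaling, filterByExpr on the 8 groups, estimateDisp, robust quasi-likelihood fit on all 36 samples, and Benjamini-Hochberg adjustment over 25601 genes. Each standard error is the absolute log2 fold change over the root of its F statistic. CPM use TMM library sizes. On simulated counts for this comparison (25601 genes, 24887 tested), 57% of 100 genes changed 1.4-fold and 87% of 100 changed 2-fold were called, with 7 false calls. Changed genes were drawn from those above 1 CPM, and counts were drawn independently for each gene. The simulation thus holds no library that departs in many genes at once, as L246 did, and its rates need not apply to these data. Alternatives used DESeq2 1.42.0 and sva 3.50.0, among others. The text names the targeted gene, every called gene, up to 3 genes of each of 41 lists with the smallest unadjusted p under 0.05, and up to 3 genes each way for the differences from wild type F and knockout M. A gene that this rule names is not reported here. Fos, Arc, Junb, Btg2, Dusp1, Nr4a1, Lars2, Cbln3, Fat2, Neurod1, Ttr, Drd1, Tmeff1 and Adcy6 were added after their values were seen. Members and gene lists were chosen with earlier results of these data known. Fits leaving out L201 and L233, with or without L246, and list medians with the share of reads outside genes in the model, were added after seeing the data.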

Additional observations from a re-analysis of the deposited data

Results flagged for a closer look

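In each group of 5 libraries, the gap of the highest or lowest library to its neighbour was divided by the range of the group (log2 CPM) and set against Dixon's value of 0.71. Of 178 groups tested, 17 were above it. Chance flags about 1 in 20, but some of these genes were chosen after their values were seen and several share 1 library, so the count is no test. L246 was the highest vehicle library for Fosb (0.888), Npas4 (0.798), Errfi1 (0.882), Atf3 (0.781), Fos (0.791), Dusp1 (0.755) and Lars2 (0.73). L279 was the lowest vehicle library for Cnih2 (0.814) and Mmd (0.85), and L281 for Olig1 (0.729). Among the CP2 libraries, L201 was lowest for Nrn1 (0.729) and highest for Grin2c (0.828) and Ttr (0.867). L227 was highest for Drd1 (0.869). L233 was highest for mt-Atp6 (0.793), and L234 for Tro (0.711) and C1qa (0.831).

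The CP2 effect differed between knockout F and knockout M for 17 of the genes named, by the test of the difference itself in edgeR (adjusted p under 0.05). Most were named because they were called in knockout F, which is one term of the difference, or for the difference itself, so that count follows from the choice. Differences in log2 fold change, F minus M, were positive for Zbtb18 (0.82), Klhl2 (0.62), Coro2b (0.40), Sema3e (0.86), Diras2 (0.63), Mical2 (0.83), Neurod6 (1.24), Kcnab1 (0.79), Cacna1a (0.79), Car15 (1.42) and Neurod2 (0.80). They were negative for Castor2 (-0.45), Necab2 (-0.76), Ankfn1 (-1.14), Eif3f (-0.46), Timp3 (-0.81) and Rps27a (-0.54). The M arm has 3 vehicle libraries, and no gene was called for the difference without L322. The share of counts taken by the gene ENSMUSG00000119584, which had no symbol, was 0.965% to 3.20% in knockout F vehicle libraries, with L246 the highest, and 1.06% to 1.61% under CP2. It was 3.54% to 4.34% in knockout M vehicle libraries and 4.79% to 5.87% in 4 of the 5 knockout M CP2 libraries, with L266 at 1.01%. Its part in these differences was not tested.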

How the results depend on the processing

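The count of 22 called genes was 35 with a mean CPM minimum of 1, 0 with only the 10 libraries or the 20 F samples (1222 and 1949 at an unadjusted p under 0.05), 69 with 2 surrogate variables, 5 with the CA score, 14 without L201, L233 and L246, and 220 with DESeq2. It was 16 to 29 under the other 6 settings that kept all or 8 of the libraries, with 4 to 19 of the 22 among them. Title numbers were all lower under CP2 (L201 to L234) than under vehicle (L246 to L283), so that any order they record cannot be told apart from treatment. With the title number as a covariate 16 genes were called, 5 higher and 11 lower, against 14 and 8, and only 4 of the 22 were among them. Without L201 and L233 the split was 14 and 13. Leaving out 1 library gave 2 to 105. The difference from wild type F called 0 genes, 1 without robust estimation and 5 with DESeq2, and 0 in each fit with 1 library left out. The difference from knockout M (177) was 90 with no filter on low counts, 374 with the CPM minimum, 0 with only its groups, 2 surrogate variables or the CA score, 13 with a covariate for reads outside genes, 70 without L201 and L233, 11 without all 3, 697 with DESeq2, and 0 to 838 with 1 library left out. No paired analysis was possible because the title numbers differ in every sample.

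Values that changed sign were uncalled. Without L201 and L233 these were Ndufs4 (-0.011), Gabra6 (-0.23), Cbln3 (-1.43) and Neurod1 (-0.057). Without those and L246 they were Fosb (0.12), Npas4 (0.39), Atf3 (0.52), Fos (0.38), Arc (0.51), Junb (0.34), Btg2 (0.28), Dusp1 (0.35), Nr4a1 (0.46), Gabra6 (-0.55), Cbln3 (-1.54), Fat2 (-0.14) and Neurod1 (-0.038). With the CA score they were Spink8 (-0.25), Nr3c2 (-0.11), Il16 (-0.39), Gabra5 (-0.10) and Neurod1 (-0.079), and with surrogate variables Rps27a (0.012) and Drd1 (-0.15). Spink8 and Nr3c2 are themselves in the list that makes the CA score. Over the fits with 1 library left out, values ran from -0.0082 to 0.080 for Ndufs4, -3.57 to 0.22 for Npas4, -3.08 to 0.17 for Atf3, -0.096 to 0.012 for Rps27a, -3.21 to 0.24 for Fos, -1.41 to 0.19 for Arc, -1.78 to 0.13 for Junb, -2.28 to 0.32 for Btg2, -1.23 to 0.23 for Dusp1, -1.45 to 0.20 for Nr4a1 and -0.21 to 0.71 for Drd1. The causes were not tested.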
